A study of Mus musculus with 12 samples.

Results

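Plasmacytoid dendritic cells (pDCs) were compared with lo-hi precursors, a bone marrow population sorted by the same gates except for low CCR9. The comparison used 6 of the 12 bulk RNA libraries of the series, 3 wells of pDCs (A4, A8 and A12, replicates 1 to 3) and 3 wells of lo-hi precursors (A3, A7 and A11, replicates 1 to 3). Both populations were sorted from bone marrow of unmanipulated C57BL/6 mice by the gates for lineage-negative, Flt3+, CD11c+ and Siglec-H+ cells. They then differed by CCR9 against B220: lo-hi precursors were CCR9lo B220hi and pDCs were CCR9hi B220hi. The other 6 wells, of Siglec-H- pre-cDCs and of CCR9lo B220lo (lo-lo) precursors, entered the same model and are given for orientation. The methods give 1 age range for the adult mice of both sexes used throughout the study, and not the age behind each well.

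The wells were given to the populations by a match of values, and the deposited labels contradict that match. The order of 28 transcription factors within each well was set against the source data of the study, whose columns carry the population names. Each of the 12 columns had the same order as 1 well in all 378 pairs of factors, and any second well disagreed in at least 7 pairs. By the labels, 8 of the 12 wells hold another population than by this match. Among the 6 wells compared, A4 is labelled CCR9lo-B220lo, A8 CCR9lo-B220hi, A3 pre-cDC and A11 pDC, and 2 wells carry a label of the population they were matched to, A7 and A12. The 28 factors therefore chose the wells, and their levels are described here without a test. Sex-linked genes, which did not enter the match, set wells A9 to A12 apart from the others. Xist, transcribed from the inactive X chromosome of female cells, lay between 218 and 596 CPM, the TMM-scaled counts per 1000000 counts, in wells A1 to A8 and between 26.6 and 58.4 CPM in wells A9 to A12. The Y-linked Ddx3y lay between 19.6 and 62.9 CPM in A9 to A12 and between 0.17 and 3.62 CPM in A1 to A8. Wells A9 to A12 are the replicate 3 wells of the 4 populations by the match, whereas by the labels they are all 3 pDC wells and 1 CCR9lo-B220hi well. When wells were grouped by their labels, 0 genes differed between pDCs and lo-hi precursors with edgeR and 0 with DESeq2, and 108 genes higher and 93 lower had an unadjusted p under 0.05 in edgeR.

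As background, pDCs are the main producers of type I interferon upon sensing of viral nucleic acids by endosomal Toll-like receptors, and they present antigen on MHC class II when mature. Mature pDCs rarely enter the cell cycle, whereas their marrow precursors do, and the E protein E2-2 (Tcf4) is their lineage factor. CCR9 is a receptor for CCL25 that guides cells to the gut and thymus, and B220 is the long isoform of CD45 (Ptprc) found on B cells and pDCs.

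The 6 libraries held between 1801463 and 5995971 counts, so that a count of 3, taken as the detection floor, corresponded to between 0.50 and 1.67 CPM before scaling. Of the 15293 genes tested (those averaging 1 count or more per well), 18 rose and 129 fell in pDCs at an adjusted p under 0.01 (edgeR), or 0.118% and 0.844% of those tested. Same-numbered wells deviated together, and a fit with replicate number as a block gave 85 genes that rose and 261 that fell (0.556% and 1.71%), including all 147 of the unblocked calls. The median log2 fold change over all genes tested was 0.03. At an unadjusted p under 0.05 (edgeR), 4.94% of all genes tested were higher and 6.40% lower. The counts of each list at this cutoff are to be read against these shares. Without lo-hi replicate 3, 1 gene rose and 64 fell, and without pDC replicate 2, 8 rose and 66 fell. Without lo-hi replicate 2, 8 genes rose, and without pDC replicate 1, 76 fell. The labels do not say that the wells of a group came from separate animals, although the study's legend speaks of 3 mice, so that the p-values measure the spread between these wells. In such bulk RNA, more cells that carry a transcript and more of it per cell cannot be told apart.

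Ccr9, the gene of the receptor used for the sort, was 251, 221 and 219 CPM in the lo-hi wells and 465, 397 and 520 CPM in the pDC wells of replicates 1, 2 and 3. It was 66.0 CPM on average in lo-lo precursors and 33.0 CPM in pre-cDCs, the lowest of the 4 populations. This gene was 1.99-fold higher in pDCs than in lo-hi precursors (log2 fold change 1.0, SE 0.18, edgeR adjusted p = 0.00139, 0.0238 without lo-hi replicate 3 and 0.0181 without lo-hi replicate 2). It counts among the 18 risen genes although the sort fixed its direction at the surface. Of the other sort genes, Ptprc (213 ± 23.8 against 243 ± 44.3 CPM, mean ± SD, n = 3), Siglech (2131 ± 206 against 2791 ± 232 CPM) and Flt3 (133 ± 17.0 against 114 ± 7.89 CPM) did not pass the test. Itgax, which encodes CD11c, fell: it was 63.6, 45.5 and 77.2 CPM in lo-hi wells and 23.5, 30.6 and 34.7 CPM in pDC wells (log2 fold change -1.09, SE 0.19, edgeR adjusted p = 0.00137). The Itgax wells did not overlap, and its adjusted p was 0.0244 without lo-hi replicate 3, 0.0144 without pDC replicate 1 and 0.0114 without pDC replicate 2.

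The genes that rose encoded surface receptors, non-classical MHC class I molecules and several proteins of no single pathway. H2-Q6, a class Ib gene of the Qa region (GRCm38 chromosome 17, positions 35424850 to 35430055), was 51.0, 44 and 29.8 CPM in lo-hi wells and 146, 122 and 104 CPM in pDC wells. That is 2.94-fold higher (log2 fold change 1.56, SE 0.22, edgeR adjusted p = 0.000181), and it stayed under 0.01 with each of the 6 wells left out. Its neighbours H2-Q4 (1.12, SE 0.19) and H2-Q5 (1.39, SE 0.29) also rose, so that 3 of 7 tested H2-Q genes passed, with a median log2 fold change of 1.05. The H2-Q genes are near-identical copies, so reads may have been split between them. H2-Q7 was 164 ± 47.6 CPM in lo-hi precursors and 338 ± 49.0 CPM in pDCs, and passed with the block (adjusted p = 0.0113 without it and 7.55e-06 with it). H2-Q4 lost its call without lo-hi replicate 3 (edgeR adjusted p = 0.0162), and H2-Q5 lost it in 4 of the 6 fits that left out 1 well, with adjusted p up to 0.0955.

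Cd8b1, the beta chain of the CD8 co-receptor, was 81.1, 85.4 and 68.3 CPM in lo-hi wells and 164, 151 and 206 CPM in pDC wells (log2 fold change 1.14, SE 0.20, edgeR adjusted p = 0.00106, 0.0209 without lo-hi replicate 3). The lowest pDC well held more Cd8b1 than the highest lo-hi well. Iglc2, an immunoglobulin lambda constant gene, was 86.6, 57.4 and 43.0 CPM against 184, 147 and 151 CPM (log2 fold change 1.34, SE 0.25, edgeR adjusted p = 0.00666). Klk1b3, a tissue kallikrein, was 44.2, 36.7 and 23.7 CPM against 107, 87.2 and 59.4 CPM (log2 fold change 1.26, SE 0.21, edgeR adjusted p = 0.00107, 0.0179 without lo-hi replicate 3). Of 11 tested Klk1 genes 1 passed, or 5 with the block, and their median log2 fold change was 1.42. These kallikrein genes are close paralogs as well, and their counts are uncertain in the same way. Gpm6b, which encodes a membrane glycoprotein of the proteolipid family, was 12.1, 14.5 and 9.92 CPM against 33.2, 25.0 and 36.4 CPM. Ncald, a neuronal calcium sensor gene, was 16.1, 14.5 and 7.72 CPM against 29.6, 36.6 and 30.4 CPM. In both genes the lowest pDC well exceeded the highest lo-hi well, and the mean was at most 3.01 CPM in lo-lo and pre-cDC wells.

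The remaining genes named by size were Adamtsl2, an extracellular matrix protein gene (2.65, 3.10 and 2.76 against 10.4, 9.79 and 10.4 CPM), and Clec2i, a lectin ligand of NK cell receptors (13.5, 12.9 and 9.37 against 26.6, 24.6 and 27.3 CPM). Adamtsl2 had the largest fold of the 18 risen genes, 3.61, but its lo-hi wells lay near the detection floor, which leaves the size uncertain. Its adjusted p (edgeR) was 0.00216 with all wells and between 0.00626 and 0.0357 with 1 well left out. Clec2i and Ncald lost their call in all 6 of those fits, Adamtsl2 and Iglc2 in 5, and Gpm6b in 2. The other 5 risen genes outside the lists were Cd209d, Cd300c2, Traf1, Ctso and Ccdc162, with log2 fold changes between 0.76 and 0.99.

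**Figure D1:**
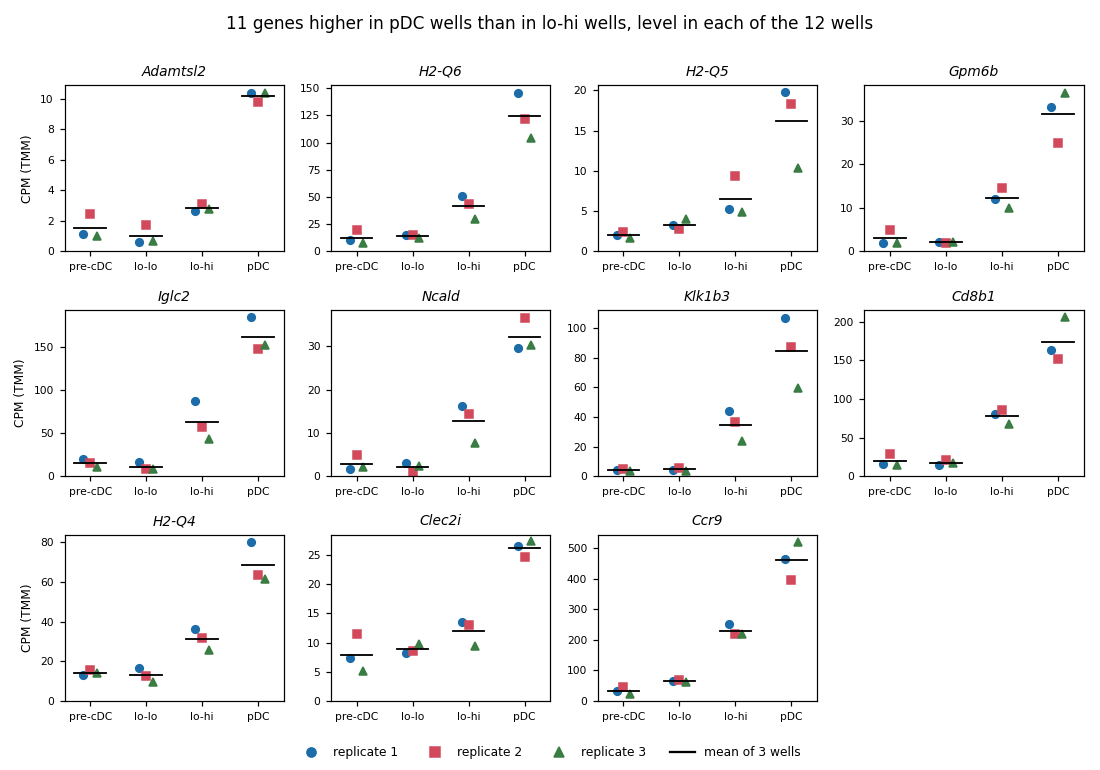
CPM after TMM scaling (vertical axis, from 0) of 11 of the largest rises in each of the 12 wells, by population. Symbols mark the replicates and bars the mean of 3 wells. In each panel all 3 pDC wells lie above all 3 lo-hi wells, and the mean of the lo-hi wells lies above those of lo-lo and pre-cDC wells.

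Of 27 pDC surface and signature genes, 2 rose (Cd8b1 and Ccr9), 0 fell and 25 did not pass the test, with a median log2 fold change of 0.40. In 14 of the 27 all pDC wells exceeded all lo-hi wells, against 8.27% of all genes tested. With the replicate block 7 rose. Cd4, the co-receptor found on mouse pDCs, was 115, 109 and 68.9 CPM in lo-hi wells and 268, 230 and 235 CPM in pDC wells. Its edgeR adjusted p was 0.0193 without the block and 2.61e-05 with it (log2 fold change 1.32 and 1.35). Lag3, an inhibitory receptor for MHC class II, was 8.61, 6.21 and 5.51 CPM against 16.3, 17.1 and 21.3 CPM. Klra17 (Ly49Q), an inhibitory receptor of mature pDCs, was 123, 99.3 and 78.8 CPM against 228, 182 and 150 CPM. Cd28 and Lair1 were the other 2 that passed with the block, at log2 fold changes of 0.88 and 0.59. The defining markers did not separate the populations as far: Bst2, the tetherin antigen, was 1367 ± 219 CPM against 1807 ± 264 CPM (adjusted p = 0.303, edgeR). Ly6d was 2397 ± 420 CPM against 2033 ± 316 CPM, and Cox6a2 and Pacsin1 had log2 fold changes of 0.03 and 0.38, none of which passed. Cd8a (34.6 ± 4.14 against 53.6 ± 14.1 CPM) and Kdr, the VEGF receptor gene (18.1 ± 6.36 against 24.9 ± 4.62 CPM), did not pass in either fit.

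Genes of the MHC class II pathway summed to a 1.94-fold higher level in pDCs, but none passed the unblocked test. Cd74, H2-Ab1 and H2-Aa made up most of that sum. Of the 18 genes, 13 had a log2 fold change above 0 and 5 below. This pathway loads peptides onto class II molecules: Ciita is its master coactivator, Cd74 the invariant chain, and the H2-DM and H2-O genes encode the peptide exchange factor and its inhibitor. H2-Aa (chromosome 17, positions 34282744 to 34287823) was 1830, 1482 and 1171 CPM in lo-hi wells and 3785, 2940 and 2701 CPM in pDC wells. H2-Ab1 was 2078, 1804 and 1372 CPM against 4604, 3405 and 3290 CPM. Cd74 was 2831, 1885 and 1447 CPM against 6190, 4117 and 2935 CPM. For these 3 genes each pDC well held more than every lo-hi well, and in both populations replicate 1 was highest and replicate 3 lowest. H2-Eb1 (351 ± 85.2 against 781 ± 126 CPM) and Ciita (5.50 ± 2.13 against 11.8 ± 1.49 CPM) had folds of 2.22 and 1.98.

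The log2 fold changes of H2-Aa, H2-Ab1, H2-Eb1, Cd74 and Ciita were 1.07, 1.10, 1.15, 1.10 and 0.98, with SE between 0.28 and 0.36. The unblocked adjusted p of these 5 genes lay between 0.0740 and 0.206 (edgeR). With the replicate block it was 0.00390 for H2-Ab1, which then passed, and 0.0216 for H2-Aa, 0.0341 for Cd74, 0.0370 for Ciita and 0.156 for H2-Eb1. Over the 18 class II genes 0 passed the unblocked edgeR test, 10 had an unadjusted p under 0.05 in the higher direction (4.94% of all genes tested), and 3 passed with DESeq2 (0.157%). With the block 2 rose, H2-Ab1 and H2-DMb2, and the list had a median log2 fold change of 0.45. The pDC wells of 9 of these genes lay above all lo-hi wells (8.27% of all genes tested), and those of 1 lay below (9.10%). Members near 0 were H2-Ob (-0.08), Rfx5 (-0.08) and Lgmn (0.06), and Ifi30, a lysosomal thiol reductase, lay lower (log2 fold change -0.31). The summed level of the 18 genes was 9074, 7099 and 5869 CPM in lo-hi wells and 18087, 13206 and 11396 CPM in pDC wells.

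**Figure D2:**
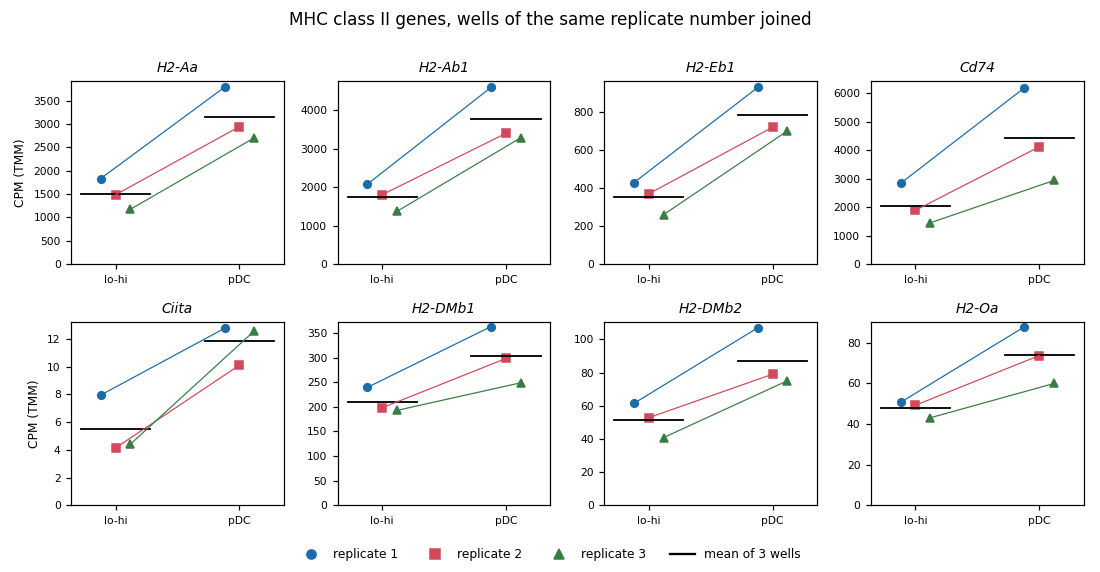
CPM after TMM scaling (vertical axis, from 0) of 8 MHC class II pathway genes in the lo-hi and pDC wells, with lines joining wells of the same replicate number and bars for the mean of 3 wells. Every line rises from lo-hi to pDC, by a log2 fold change of 0.53 for H2-DMb1 to 1.15 for H2-Eb1.

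Classical MHC class I genes had smaller fold changes, and none passed the unblocked test. H2-K1 was 1820, 1656 and 1340 CPM in lo-hi wells and 2546, 2358 and 2116 CPM in pDC wells (log2 fold change 0.54, edgeR adjusted p = 0.0777 without and 0.00678 with the block). H2-D1 was 0.57 higher on the log2 scale (adjusted p = 0.122 and 0.00994), and the light chain gene B2m 0.52 higher. Over the 15 genes of the class I pathway 0 passed the unblocked edgeR test and 0 passed with DESeq2. At an unadjusted p under 0.05, 4 were higher (4.94% of all genes tested) and 0 lower. With the block 2 rose (0.556% of all genes tested). The peptide transporter gene Tap1 and the proteasome activator gene Psme2 had log2 fold changes of -0.08 and -0.01.

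Interferon-stimulated genes were mostly higher by small amounts that did not pass. Of 39 tested, 0 passed the unblocked edgeR test and 0 passed with DESeq2. At an unadjusted p under 0.05, 8 were higher (4.94% of all genes tested) and 0 lower. In 32 the log2 fold change was above 0, and the median was 0.28. Ifi213, a DNA-sensing PYHIN family gene, was 5.08, 4.14 and 2.76 CPM in lo-hi wells and 11.2, 12.3 and 8.68 CPM in pDC wells (log2 fold change 1.35, SE 0.34, edgeR adjusted p = 0.0296 without and 0.00427 with the block). It was the 1 gene of the list that rose with the block. Ifit2 (5.98 ± 2.82 against 12.3 ± 3.12 CPM) and Mx1 (20.7 ± 5.72 against 29.6 ± 3.16 CPM), both antiviral effectors, did not pass in either fit. The signal transducer gene Stat2 had a log2 fold change of 0.15, with overlapping wells, and Jak1 of 0.38. JAK and STAT genes as a list had 0 of 15 past the unblocked test and 0 with DESeq2, 2 with an unadjusted p under 0.05, and a median of 0.15.

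Among 18 genes of endosomal Toll-like receptor sensing, 0 passed the unblocked edgeR test and 0 passed with DESeq2, with 3 at an unadjusted p under 0.05 and a median log2 fold change of 0.06. Tlr7, the receptor for single-stranded RNA, was 61.8, 63.1 and 45.2 CPM in lo-hi wells and 91.5, 91.0 and 98.1 CPM in pDC wells (log2 fold change 0.71, SE 0.17). Its edgeR adjusted p was 0.0192 without the block and 0.00268 with it. Tlr9, the receptor for CpG DNA, was near the floor at 4.55 CPM in lo-hi precursors and 3.92 CPM in pDCs. Unc93b1, which carries these receptors to endosomes, and Slc15a4 had log2 fold changes of 0.25 and 0.32, neither past the test. Genes of the secretory apparatus, which pDCs hold in quantity, had a median of 0.12 over 28 members, with 0 past the unblocked edgeR test, 0 with DESeq2 and 2 at an unadjusted p under 0.05.

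Among chemokine receptors Ccr9 rose and Cxcr4 fell. Cxcr4, which retains cells in the bone marrow through CXCL12, was 20.8, 22.8 and 26.5 CPM in lo-hi wells and 12.8, 10.1 and 11.7 CPM in pDC wells. It fell by 0.98 on the log2 scale (SE 0.21, edgeR adjusted p = 0.00859), and with 1 well left out its adjusted p was between 0.0161 and 0.0716. Of 14 chemokine and egress receptors tested, 1 rose and 1 fell (0.118% and 0.844% of all genes tested), with a median of -0.07. The 1 that rose was Ccr9, whose direction the sort fixed at the surface, and the 1 that fell was Cxcr4. In 15 adhesion molecules 1 fell (0.844% of all genes tested), Itgax, which is also a sort gene. Among 23 cytokine receptors 0 passed with edgeR or DESeq2. At an unadjusted p under 0.05, 4 of these receptors were higher and 4 lower (4.94% and 6.40% of all genes tested).

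Genes of the dividing cell fell in pDCs. Of 35 genes of G2 and mitosis, 24 fell, 0 rose and 11 did not pass, against 0.844% of all genes that fell. The median log2 fold change was -1.34, a 2.53-fold lower level. In 34 of the 35 all pDC wells lay below all lo-hi wells (9.10% of all genes). At an unadjusted p under 0.05, 34 of the 35 were lower (6.40% of all genes), and with DESeq2 26 fell (0.955%). Of 34 S phase genes, 11 fell, with a median of -0.90, and 16 fell with the block. The summed G2 and mitosis level was 1710, 1671 and 2058 CPM in lo-hi wells and 739, 751 and 913 CPM in pDC wells. For S phase it was 981, 987 and 1207 CPM in lo-hi wells and 620, 572 and 590 CPM in pDC wells. Pre-cDCs and lo-lo precursors held more of both, between 3719 and 4445 CPM for G2 and mitosis and between 1740 and 2540 CPM for S phase.

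Kif23, a kinesin of the midbody (chromosome 9, positions 61915905 to 61946774), was 28, 48.1 and 44.6 CPM in lo-hi wells and 10.9, 9.48 and 13 CPM in pDC wells. Its log2 fold change was -1.83 (SE 0.22, edgeR adjusted p = 1.78e-05). Cenpf, a kinetochore protein, was 81.9, 90.5 and 112 CPM against 22.6, 31.0 and 36.9 CPM (-1.67, SE 0.19). Birc5 (survivin), of the chromosomal passenger complex, was 116, 120 and 152 CPM against 47.0, 39.8 and 46.0 CPM (-1.54, SE 0.19). Tpx2, a spindle assembly factor, fell by 1.66 on the log2 scale. In these 4 genes every pDC well lay below every lo-hi well, and the adjusted p stayed under 0.01 with each of the 6 wells left out. Other large falls, among genes of at least 10 CPM in lo-hi wells, were those of Ska1 (-1.98), of the kinetochore complex, Cdca5 (-1.97), which holds sister chromatids together, Hmmr (-1.75), Cit (-1.74), Kif22 (-1.71), Pbk (-1.69) and Cip2a (-1.67). Of these 7, Ska1 lost its call without lo-hi replicate 3 and without either pDC replicate 1 or 2 (edgeR adjusted p between 0.0301 and 0.0358), and Cip2a without pDC replicate 1 (0.0123). Ckap4, a sheet-forming protein of the endoplasmic reticulum, fell from 27.4, 27.9 and 27.6 CPM to 6.64, 11.7 and 6.07 CPM.

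In the S phase list, Lig1 (DNA ligase 1) was 40.2, 54.3 and 65.6 CPM in lo-hi wells and 16.0, 19.3 and 17.8 CPM in pDC wells (log2 fold change -1.58, SE 0.19, edgeR adjusted p = 2.77e-05). Uhrf1, which maintains DNA methylation at replication forks, was 44, 43.5 and 69.4 CPM against 17.2, 13 and 24.7 CPM (-1.52, SE 0.22). Rrm2, of ribonucleotide reductase, fell by 1.37 and Clspn, of the replication checkpoint, by 1.59 on the log2 scale. In all 4 genes lo-hi and pDC wells did not overlap. Of the helicase genes, Mcm3 and Mcm7 fell, and Mcm2, Mcm5 and Mcm6 passed with the block. Histone genes of the Hist1 and Hist2 clusters, made in S phase, fell in 15 of 53 cases, of which Hist1h2ap was the most counted (1132, 1312 and 1686 against 491, 448 and 605 CPM). The Hist1h2a genes are near-identical, and libraries primed on poly(A) tails capture few of their transcripts, so single members are uncertain. Of the 129 fallen genes, 36 were in the S, G2 or G1 lists, 16 were other histone genes and 77 were in neither set. The 77 include division genes that the lists do not hold, such as Ska1, Kif22 and the 5 fallen Cdca (cell division cycle associated) genes.

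Genes of the G1 machinery had smaller fold changes, with a median of -0.23 on the log2 scale. Ccnd1 (cyclin D1) was 367 ± 45.1 CPM in lo-hi precursors and 370 ± 41.9 CPM in pDCs, and the CDK inhibitor gene Cdkn1b was 50.0 ± 17.9 and 48.2 ± 13.8 CPM. E2f2 fell from 24.3, 17.1 and 22.0 CPM to 7.32, 10.7 and 9.54 CPM (log2 fold change -1.26, SE 0.23, edgeR adjusted p = 0.00197, and between 0.0144 and 0.0319 without lo-hi replicate 1, lo-hi replicate 3 or pDC replicate 1). Btg2, an antiproliferative gene, rose from 407, 386 and 330 CPM to 599, 686 and 690 CPM (log2 fold change 0.81, SE 0.14, edgeR adjusted p = 0.00143, and 0.0331 without lo-hi replicate 3, 0.0200 without pDC replicate 2 and 0.0113 without lo-hi replicate 2). These were the 2 of 20 genes on the list that passed.

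**Figure D3:**
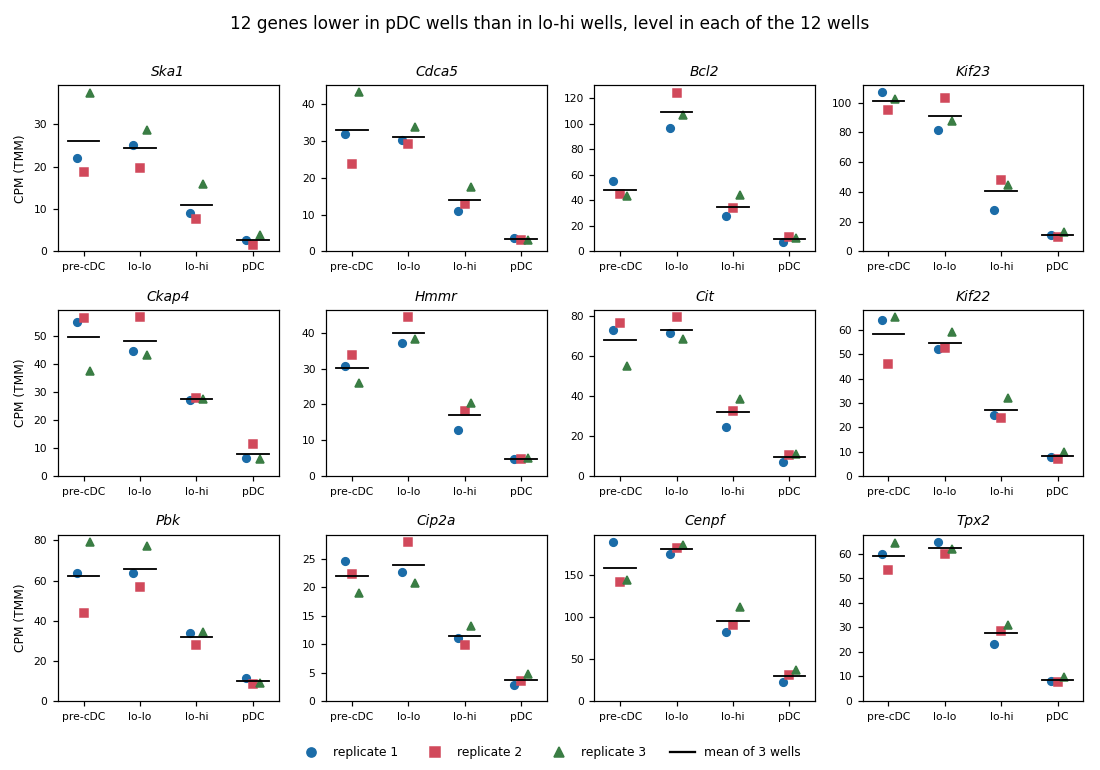
CPM after TMM scaling (vertical axis, from 0) of the 12 largest falls in each of the 12 wells, by population, with symbols for the replicates and bars for the mean of 3 wells. In each panel the mean is lowest in pDC wells and that of lo-hi wells lies below those of lo-lo and pre-cDC wells. Bcl2 is highest in lo-lo wells, at a mean of 109 CPM.

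Promoters of these genes are shown because known elements of cell cycle genes can be read in them. The cell cycle homology region (CHR), TTTGAA, is bound by the DREAM and MuvB complexes and marks G2 and mitosis genes, and the E2F motif marks G1 and S genes. Windows from 250 bases before to 30 bases after the start site were searched on both strands for TTTGAA and for the E2F forms TTTGGCGC, TTTCCCGC, TTTGCCGC and TTTCGCGC. The CHR letters stood in 20 of 31 windows of G2 and mitosis genes (64.5%), in 3 of 32 windows of S phase genes (9.38%) and in 12% of the windows of all tested genes. The E2F letters stood in 12 of 32 windows of S phase genes (37.5%), in 1 of 31 of G2 and mitosis genes (3.23%) and in 3.62% of windows of all tested genes. Windows were at hand for 10058 of the 15293 tested genes, among them 30 G2 and mitosis genes and 27 S phase genes. Over all 32851 windows the shares were 17.2% and 2.12%. Of the genes that fell, 91 had windows, and 41 of these 101 windows held the CHR letters and 14 an E2F form. Of the genes that rose, 3 of 13 windows held the CHR letters and 0 an E2F form. The windows of 6 fallen genes follow, 3 with the CHR and 3 with an E2F form, chosen by the smallest p among those with the letters, 5′ to 3′ in the direction of the gene, from RefSeq on GRCm38.p6. Capitals mark the matched letters, on either strand.
Cenpf, chr1:189688057-189688336, minus strand: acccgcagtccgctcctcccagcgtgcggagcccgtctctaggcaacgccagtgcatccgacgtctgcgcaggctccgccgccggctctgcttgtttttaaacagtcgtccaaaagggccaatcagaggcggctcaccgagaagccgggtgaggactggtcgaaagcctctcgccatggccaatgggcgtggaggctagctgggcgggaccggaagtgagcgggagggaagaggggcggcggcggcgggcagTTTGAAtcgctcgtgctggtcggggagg
Kif23, chr9:61946770-61947049, minus strand: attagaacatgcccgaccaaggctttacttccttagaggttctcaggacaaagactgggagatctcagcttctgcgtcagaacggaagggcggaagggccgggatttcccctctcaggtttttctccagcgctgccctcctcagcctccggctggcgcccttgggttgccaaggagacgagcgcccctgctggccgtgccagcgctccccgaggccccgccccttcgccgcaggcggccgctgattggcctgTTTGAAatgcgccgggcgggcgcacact
Top2a, chr11:99024160-99024439, minus strand: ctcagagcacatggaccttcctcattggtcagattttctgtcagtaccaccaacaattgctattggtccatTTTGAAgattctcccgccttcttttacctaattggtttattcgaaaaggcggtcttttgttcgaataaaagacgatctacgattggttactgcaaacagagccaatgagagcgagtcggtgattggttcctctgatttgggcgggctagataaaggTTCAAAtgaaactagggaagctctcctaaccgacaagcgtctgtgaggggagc
Uhrf1, chr17:56304063-56304342, plus strand: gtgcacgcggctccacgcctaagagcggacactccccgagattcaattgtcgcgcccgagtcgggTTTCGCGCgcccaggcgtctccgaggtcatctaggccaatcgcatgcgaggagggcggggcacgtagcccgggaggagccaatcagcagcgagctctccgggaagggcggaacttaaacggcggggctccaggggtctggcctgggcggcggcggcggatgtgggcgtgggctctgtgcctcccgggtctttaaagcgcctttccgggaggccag
Clspn, chr4:126556730-126557009, plus strand: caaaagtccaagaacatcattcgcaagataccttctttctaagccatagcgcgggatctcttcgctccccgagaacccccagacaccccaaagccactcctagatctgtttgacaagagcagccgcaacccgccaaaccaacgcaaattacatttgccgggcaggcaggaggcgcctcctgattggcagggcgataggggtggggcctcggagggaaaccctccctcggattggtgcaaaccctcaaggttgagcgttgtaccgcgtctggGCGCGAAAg
Hells, chr19:38930740-38931019, plus strand: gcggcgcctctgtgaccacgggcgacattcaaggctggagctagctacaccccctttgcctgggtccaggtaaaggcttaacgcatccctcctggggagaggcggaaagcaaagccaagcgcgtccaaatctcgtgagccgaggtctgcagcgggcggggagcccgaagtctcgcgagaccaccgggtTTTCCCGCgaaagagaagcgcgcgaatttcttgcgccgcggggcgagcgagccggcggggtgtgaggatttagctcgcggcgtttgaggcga
In Cenpf and Kif23 the CHR letters begin 2 bases after the start site, and Top2a, which encodes topoisomerase II alpha, holds them in 2 places. Top2a was 162, 167 and 225 CPM in lo-hi wells and 56.4, 58.8 and 86.3 CPM in pDC wells (log2 fold change -1.47, SE 0.18). Hells, a chromatin remodeller, was 29.8, 49.1 and 52.4 CPM against 16.2, 17.7 and 20.4 CPM. A match is a run of letters and was not tested as a binding site.

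Bcl2, the survival gene (chromosome 1, positions 106538178 to 106714274), fell in pDCs from 27.4, 33.6 and 44.1 CPM to 7.15, 11.7 and 10.8 CPM. Its log2 fold change was -1.84 (SE 0.23, edgeR adjusted p = 2.88e-05), and it passed with each of the 6 wells left out. Of 13 tested genes of the BCL2 family this was the 1 that passed. Mcl1 (86.0 against 72.6 CPM), Bcl2l1 (11.5 against 10.1 CPM) and the pro-apoptotic Bax (14.7 against 15.8 CPM) did not pass.

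Few genes of progenitors and of the myeloid lineage passed the test, and those that did fell in pDCs. Of 20 progenitor genes, with a median log2 fold change of -0.55, 14 lay below 0 and 6 above, and 1 fell, Cd93, from 31.1, 34.1 and 43.5 CPM to 14.3, 16.4 and 18.7 CPM (log2 fold change -1.14, SE 0.18, edgeR adjusted p = 0.000560). With the block 4 fell, with Myb, Sox4 and Mpo added. In the other direction Dntt, the terminal transferase of lymphoid progenitors, was 103, 87.9 and 90.4 CPM in lo-hi wells and 168, 140 and 141 CPM in pDC wells, which did not overlap but did not pass (log2 fold change 0.67, edgeR adjusted p = 0.0560 without and 0.0104 with the block). In 3 of the 20 progenitor genes, Dntt among them, all pDC wells lay above all lo-hi wells (8.27% of all genes tested). In 9 of the 20 they lay below (9.10%). Of 26 conventional DC and myeloid genes, with a median of -0.52, 19 lay below 0 and 7 above, and 3 fell, Ms4a6c, Tnfaip2 and Lgals3, or 8 with the block. Ms4a6c, a membrane-spanning protein gene of monocytes, was 97.6, 126 and 142 CPM against 57.1, 50.9 and 61.6 CPM (-1.10, SE 0.16), and averaged 358 CPM in lo-lo precursors and 657 CPM in pre-cDCs. Lgals3 (galectin-3) was 235, 251 and 323 CPM against 140, 143 and 169 CPM, and its edgeR adjusted p of 0.00649 rose above 0.01 in 4 of the 6 fits that left out 1 well, to 0.0940 without lo-hi replicate 3. Tnfaip2 (19.5 ± 3.03 against 8.04 ± 1.84 CPM) had an edgeR adjusted p of 0.00132, and of 0.0183 without pDC replicate 1 and 0.0147 without lo-hi replicate 3. Outside the lists, Vim (vimentin) fell by 1.08 and Cd24a by 1.10 on the log2 scale, 2 genes chosen after their values were seen. Hk2 (hexokinase 2) fell from 41.1 ± 7.49 to 19.4 ± 0.279 CPM, the 1 of 15 glycolysis genes that passed.

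Markers of neutrophils were higher in lo-hi wells, as were the 3 fallen myeloid genes above. The 12 neutrophil genes summed to 21269, 12818 and 10149 CPM in lo-hi wells and to 6820, 5436 and 3351 CPM in pDC wells. Among lo-hi wells this sum was highest in replicate 1. It ranged from 5515 to 18322 CPM among lo-lo wells and from 4565 to 11861 CPM among pre-cDC wells. The highest pDC well lay below the lowest lo-hi well, in the sum and in each of the 12 genes (9.10% of all genes tested). S100a8, a granule protein gene, was 9015, 5846 and 4413 CPM against 2848, 2399 and 1500 CPM (log2 fold change -1.51, edgeR adjusted p = 0.359 without and 0.0260 with the block). The list had a median log2 fold change of -1.47, with 0 past the unblocked edgeR test. At an unadjusted p under 0.05, 8 were lower (6.40% of all genes tested). With DESeq2 1 fell (0.955%), and with the block 4 fell (1.71%), Mpo, Prtn3, Ltf and Lcn2. Lineage-positive cells had been gated out of the sort, and the part of neutrophil RNA in the fall of the myeloid or cell cycle genes was not tested.

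**Figure D4:**
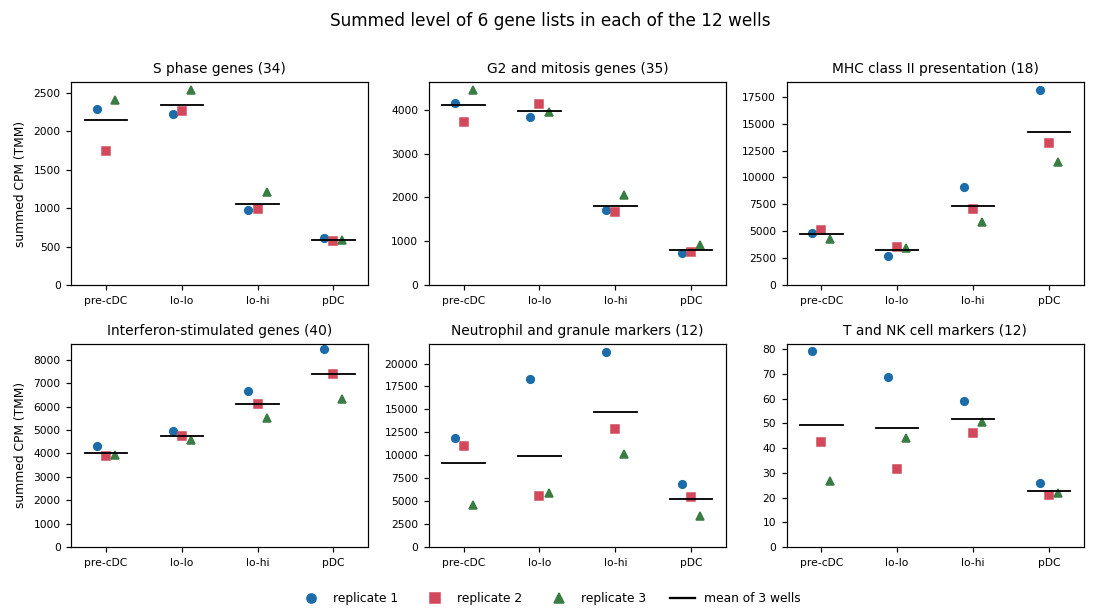
Summed CPM after TMM scaling (vertical axes, from 0) of 6 gene lists in each of the 12 wells, with the number of measured genes in brackets, symbols for the replicates and bars for the mean of 3 wells. Both cell cycle sums are lowest in the 3 pDC wells, MHC class II is highest there, and the neutrophil sum is at least 10149 CPM in each lo-hi well and at most 6820 CPM in each pDC well.

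Among the markers of other cells, erythroid genes were abundant in both populations and T and NK cell genes were low, and lower in pDC wells. The 12 T and NK cell markers summed to 59.0, 46.0 and 50.7 CPM in lo-hi wells and to 25.7, 20.8 and 21.7 CPM in pDC wells. Of the T cell receptor complex, Cd3d had 10, 6 and 5 counts in lo-hi wells and 6, 1 and 2 in pDC wells, Cd3g 6, 4 and 3 against 0, 0 and 1, and Cd3e 0, 0 and 0 against 1, 1 and 0. The kinase gene Lck had 58, 26 and 44 against 36, 24 and 23 counts, and all 8 tested members of the list had a log2 fold change below 0, of which Nkg7 fell with the block. The 9 erythroid genes, with the haemoglobins, summed to overlapping levels, 11014, 11634 and 9203 CPM against 11061, 14241 and 6797 CPM. Macrophage and platelet markers (8 genes) summed to 59.9, 34.7 and 26.5 CPM against 21.8, 20.8 and 15.2 CPM, basophil and mast cell markers to means of 156 and 113 CPM, and plasma cell markers to 171 and 218 CPM. Of 19 B lymphoid genes 0 passed with edgeR or DESeq2. At an unadjusted p under 0.05, 3 of them were higher and 4 lower (4.94% and 6.40% of all genes tested). Pax5, the B lineage factor, was 11.3 CPM in lo-hi precursors and 4.72 CPM in pDCs, and the immunoglobulin heavy chain gene Ighm was 596 and 753 CPM. In the remaining lists of T and NK, erythroid, basophil, plasma cell, and macrophage and platelet genes 0 passed with edgeR or DESeq2, with 4, 1, 0, 0 and 1 lower at an unadjusted p under 0.05.

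Genes of general metabolism differed little. Cytosolic ribosomal protein genes had a median log2 fold change of -0.02 over 35 members, with 0 past either test and 0 at an unadjusted p under 0.05, and respiratory chain genes had a median of -0.09 over 29, with 1 at an unadjusted p under 0.05. Lysosomal proteases had a median of 0.17 over 16 members, of which Ctsl rose with the block (633 ± 68.8 against 1071 ± 361 CPM). For 11 NF-kB genes and 15 E proteins and other lymphoid factors 0 passed the unblocked edgeR test or DESeq2, with 2 higher and 3 lower at an unadjusted p under 0.05, respectively.

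**Figure D5:**
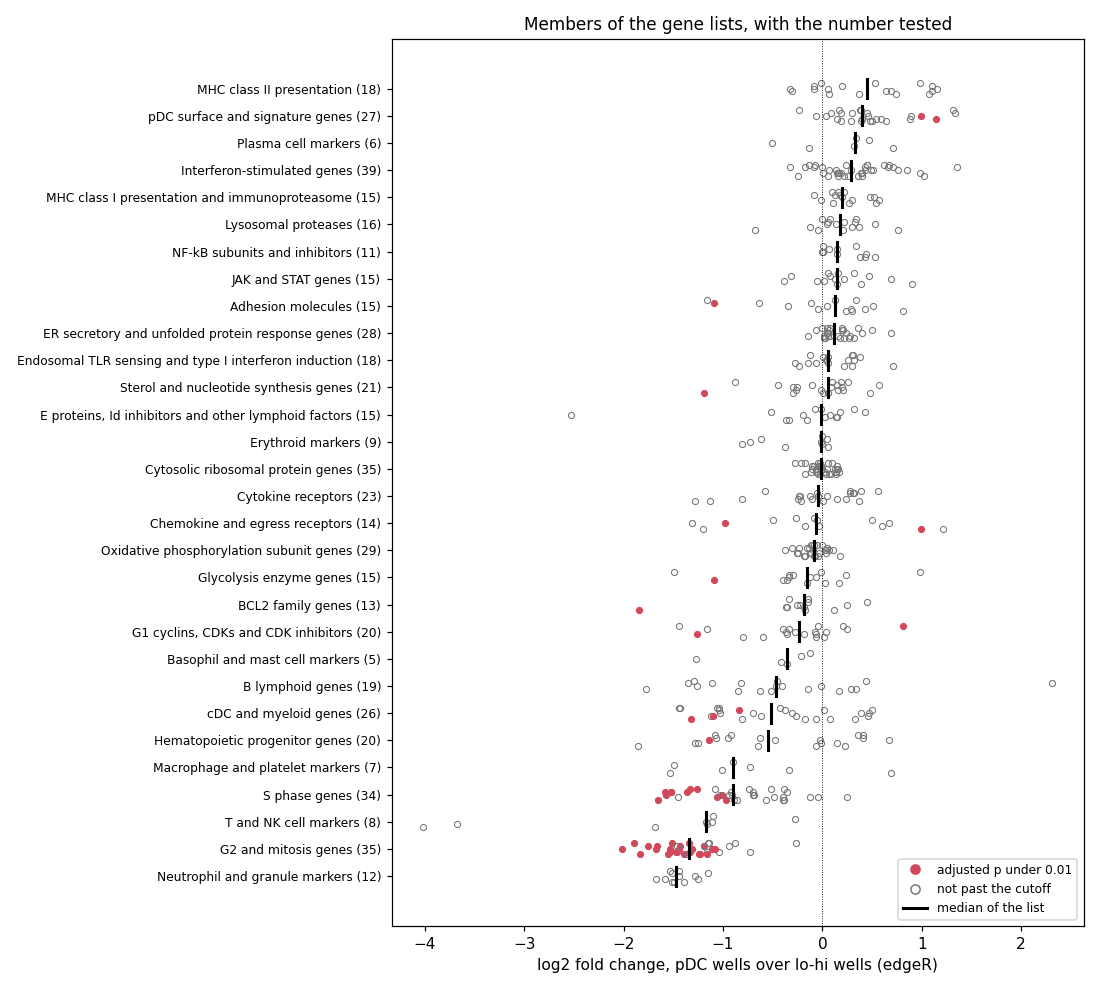
Log2 fold change of pDC over lo-hi wells (horizontal axis, edgeR) for each tested member of 30 gene lists, ordered by their median (black bars). Filled points passed an adjusted p of 0.01. The G2 and mitosis and the S phase lists hold most filled points, at negative values, and the MHC class II and pDC surface lists have the highest medians, 0.45 and 0.40.

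The 28 transcription factors had chosen the wells, so their values carry no test. Irf7, the interferon regulatory factor of pDCs, was 285, 212 and 130 CPM in lo-hi wells and 549, 412 and 215 CPM in pDC wells, and each pDC well was higher than the lo-hi well of its number. Relb was 15.2, 18.1 and 17.1 CPM against 27.8, 22.7 and 33.0 CPM, and Spib 406, 347 and 308 CPM against 546, 472 and 410 CPM. Tcf4 (E2-2) was 2201, 2734 and 2620 CPM against 1711, 2670 and 3164 CPM, with overlapping wells. Runx1, which acts in early haematopoietic cells, was 44.8, 59.5 and 84.3 CPM against 29.6, 37.3 and 36.9 CPM, and Zbtb46, a factor of conventional DCs, 4.20, 4.14 and 7.72 CPM against 1.87, 4.11 and 2.17 CPM. Over the 28 factors the median log2 fold change was 0.01, with 14 above and 14 below 0.

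Finally, the leading differences were read as ratios with no test in the 2 wells whose labels name the population they were matched to. These are pDC well A12, of replicate 3, and lo-hi well A7, of replicate 2, with Xist at 44.3 and 424 CPM. Both are among the 6 wells that gave the calls, so their ratios are no separate check. On the log2 scale H2-Q6 was 1.23, Cd8b1 1.27, Ccr9 1.23, H2-Ab1 0.87 and Cd4 1.10 higher in A12. Kif23 was -1.85, Birc5 -1.37, Lig1 -1.58, Bcl2 -1.59 and Itgax -0.39 in the same ratio. H2-Q5 had a ratio of 0.15, against a log2 fold change of 1.39 over the 6 wells. All 37 named genes past the test kept their sign, which was fixed beforehand, since none of them had overlapping wells. Of the 37, 18 had a ratio within 1 SD (over the 3 pairs of wells) of the value over the 6 wells and 19 had not. Among the 19 were Ska1 (-0.91 against -1.98), Uhrf1 (-0.80 against -1.52) and Klk1b3 (0.69 against 1.26).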

How the data were processed

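Bulk RNA of 12 wells was profiled by a modified SCRB-seq protocol, which primes on poly(A) tails and reads 3′ ends. The authors filtered barcodes within zUMIs, mapped reads to mm10 with STAR 2.5.2b and assigned them to Ensembl genes of GRCm38. The values deposited by the authors are whole-number counts per gene and well, not normalised; whether they are reads or unique molecules is not given in the sources used here. Symbols and positions came from GENCODE vM21, which named 21410 of 21754 identifiers, and promoters from a RefSeq table.

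Genes averaging 1 count or more per well (15293; 6461 left out) were tested with edgeR 4.0.16 in R 4.3.3 (TMM scaling, robust quasi-likelihood fit, 4 groups, no covariate), with Benjamini-Hochberg adjustment at 0.01. The study itself used DESeq2 with a likelihood ratio test at this cutoff. CPM are TMM-scaled counts per 1000000. The number of counts limits precision: a well's floor of 3 counts covers counting error only. DESeq2 1.42.0 was an alternative.

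Wells follow the match of 28 transcription factors to the source data, and not the deposited labels. Replicate numbers are those of that match. Deviations from the group means correlated within all 3 pDC and lo-hi pairs (r = 0.477, 0.242 and 0.175 over 7824 genes with at least 10 CPM). Over the 12 wells the mean was 0.258 in 18 same-numbered pairs. The mean of -0.129 in the 36 others follows from that value, because deviations sum to 0 in each group, and adds no evidence. Because of the same-numbered correlations the numbers were taken as pairs, and the replicate block was run as the other fit.

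Named genes were the 12 largest changes in each direction, among genes with a symbol past the cutoff whose wells did not overlap and whose mean was at least 10 CPM in the higher group. Added to these were up to 4 called members per list, the sort genes and the genes the study names for the 2 populations, and the 28 factors were left out. Other genes are examples of lists, chosen after their values were seen. The members and lists were chosen with earlier results of these data known. Some genes that meet these rules are not reported here. The fits were tested on simulated data.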

Additional observations from a re-analysis of the deposited data

How the results depend on the processing

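The wells' assignment decides these results. With wells grouped by their deposited labels, 0 genes rose and 0 fell (edgeR), and of 55 named genes 39 took the opposite sign, as log2 fold changes. Of the genes higher in pDCs these were Adamtsl2 (-0.11), H2-Q6 (-0.27), H2-Q5 (-0.63), Iglc2 (-0.10), Ncald (-0.43), Klk1b3 (-0.58), H2-Q4 (-0.18), Btg2 (-0.12), Ciita (-0.13), Cd74 (-0.44), H2-Aa (-0.17), H2-Ab1 (-0.14), H2-Eb1 (-0.10), Ifit2 (-0.22), Ifi213 (-0.62), Mx1 (-0.52), Tlr7 (-0.024), Bst2 (-0.16), Cd4 (-0.15) and Kdr (-0.63). Of those lower in pDCs they were Ska1 (0.070), Bcl2 (0.89), Ckap4 (0.027), Hmmr (0.42), Cit (0.29), Kif22 (0.092), Pbk (0.073), Cip2a (0.30), Cenpf (0.34), Tpx2 (0.046), Cxcr4 (0.38), Itgax (0.77), Lig1 (0.36), Uhrf1 (0.43), Rrm2 (0.13), Clspn (0.47), E2f2 (0.092), Cd93 (0.24) and Flt3 (0.25). With the match, 1 named gene took the opposite sign under another alternative, Kdr, which did not pass the test (log2 ratio -0.22 in A12 over A7, against 0.45). With the replicate block 85 genes rose and 261 fell, and the block ended no call. The 6 wells alone gave 50 that rose and 167 that fell, no filter on the mean count 82 and 262, and a cutoff of 0.05 69 and 258. Counts thinned to the smallest total (1801463) gave 11 and 89. DESeq2 gave 24 and 146, of which 14 and 123 were also called by edgeR. Leaving out 1 well gave between 1 and 23 genes that rose and between 64 and 124 that fell. Genes near the floor of 3 counts could not be compared at this depth.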
